A study of Mus musculus with 4 samples.

Results

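The interleukin-1 (IL-1) receptor cluster is a run of 6 receptor genes, Il1r2, Il1r1, Il1rl2, Il1rl1, Il18r1 and Il18rap, side by side on mouse chromosome 1. Its chromatin was examined by ATAC-seq, which marks accessible DNA by the adapters that Tn5 transposase inserts there. Peaks from any of the 4 lists sharing 1 bp or more were joined into a merged region, and the regions in or within 100 kb of the 6 gene bodies were taken (39984692 to 40651707, mm10). This gave 44 regions out of 119965 in all. The cluster was chosen by its peak calls in the small and the large intestine, which were already known, so the calls are given as a description, with no test.

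Both groups were stem cells sorted from crypts of Lgr5-EGFP-IRES-creERT2 mice 6 to 12 weeks old, with no treatment. Small-intestinal stem cells (SISC, 2 libraries) were Lgr5-EGFP positive and CD24 negative and came from the ends of the small intestine by pylorus and cecum. Large-intestinal stem cells (LISC, 2 libraries) were gated on Lgr5-EGFP without mention of CD24 and came from the cecum to the rectum, so that tissue and gate cannot be told apart. The EGFP knock-in reports Lgr5, a Wnt target that marks crypt base stem cells, and each library took 50000 cells. Whether replicates are different animals is not stated. The lists held 83443 and 93220 peaks for SISC and 91313 and 88739 for LISC, and read depth is unknown. Peaks on the Y chromosome were 6 in SISC replicate 1, 8 in LISC replicate 1 and 0 in the replicate 2 lists. All 12 epithelial markers checked, Epcam, Cdh1, Cdx2 and Lgr5 among them, had a region in every library at the gene start, beside 62.1% of protein-coding genes. Where the table used gives no start, a gene end was taken.

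IL-1 family receptors are paired: a chain that binds the cytokine recruits an accessory chain, and their cytoplasmic TIR domains pass the signal through MyD88 and IRAK kinases to NF-kB. IL1R1 binds IL-1, and IL1R2 is a decoy that binds IL-1 without signalling. IL1RL2 is the receptor for IL-36, IL1RL1 (ST2) for IL-33, and IL18R1 with IL18RAP for IL-18. In the gut these cytokines are known for alarm and repair signals between epithelium, stroma and immune cells.

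Of the 44 regions, 1 was called in each of the SISC libraries but not in LISC (SISC-only), beside 7.96% of all regions genome-wide. Without SISC replicate 1 this count was 5. In the opposite class, 20 regions (45.5%) were called in both LISC libraries and no SISC library (LISC-only), beside 10.2% of all regions. Another 8 (18.2%) were called in all 4 libraries, beside 48.2%. Of the last 15, 4 were called in SISC replicate 2 alone, 7 in LISC replicate 1 alone, 3 in LISC replicate 2 alone and 1 in the replicate 2 library of each group. By library, 9 and 14 of the 44 regions were called in SISC replicates 1 and 2, where these lists held 65% and 75.9% of all regions. In LISC replicates 1 and 2 the counts were 35 and 32, where the lists held 71.8% and 71.5% of all regions. The peaks covered 5.29 and 7.15 kb of the window in the SISC libraries and 20.5 and 22.3 kb in the LISC libraries. The groups did not overlap in this window, which was chosen by these calls. Over the whole lists the peaks covered 49.9 and 63.3 Mb in SISC, against 55.5 and 58.3 Mb in LISC, where the groups overlapped. Absence from a list does not show that a site is closed, and in these sorted pools fewer cells with an open site cannot be told apart from less opening per cell.

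**Figure D1:**
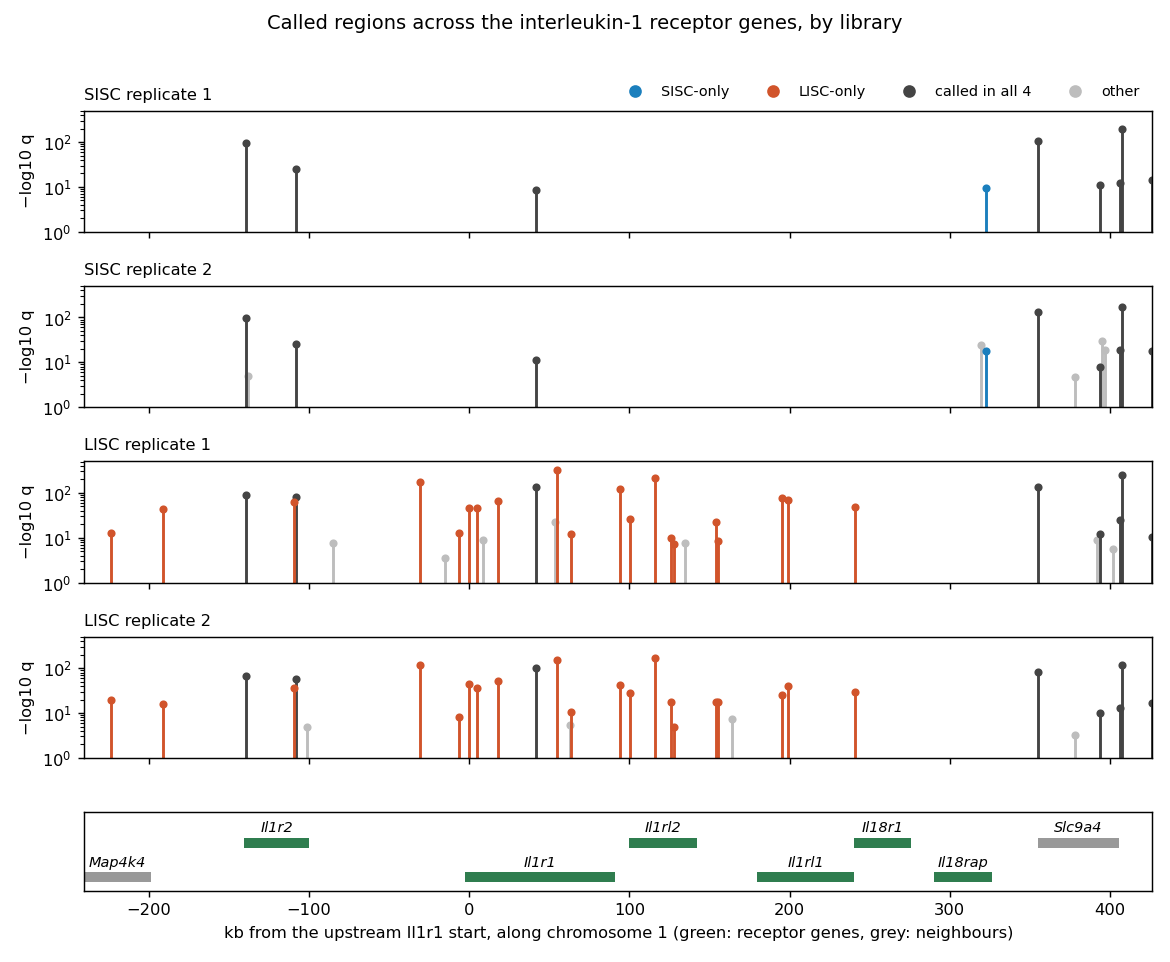
Each stem is a called region, placed by its centre in kb from the upstream Il1r1 start, with the height giving the authors' −log10 q in that library on a log axis. Between Il1r2 and Il18rap the SISC libraries carry a lone region, at the downstream Il1r1 start, while the LISC libraries carry 17 LISC-only regions there.

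The LISC-only regions were not spread evenly along the cluster. From past the end of Il1r2 to the end of Il18r1 there were 25 regions, of which 17 were LISC-only, 1 was called in all 4 libraries and 7 were called in 1 LISC library alone. The 17 span 272 kb (40193908 to 40465981) and cover 14.1 kb. No region in this stretch was SISC-only, and 24 of the 25 were called in no SISC library. Past Il18r1, the 12 regions included 1 SISC-only and 5 called in all 4 libraries, and none was LISC-only. Up to the end of Il1r2, 3 of 7 regions were LISC-only and 2 were called in all 4 libraries. The longest stretch with no region in any library ran for 78.7 kb from the Il18r1 start region into Il18rap.

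**Figure D2:**
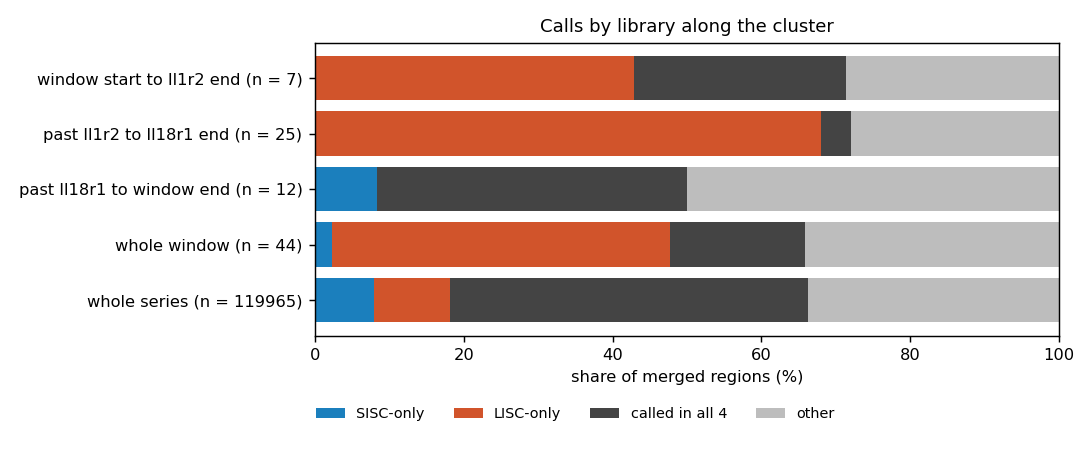
Bars give the share of merged regions in each call class for 3 stretches of the cluster, the whole window and the whole series. LISC-only regions make up 68% of the middle stretch, 45.5% of the window and 10.2% of the series, and are missing from the stretch past Il18r1.

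The sequences just before the gene starts are shown because the calls at them differed from gene to gene. All lie on the plus strand of chromosome 1 and come from RefSeq (GRCm38.p6, the same coordinates as mm10), where all 6 genes matched with 10 annotated starts in all. Each stretch is the 250 bases before a start, and that of Il18r1 is cut to the 133 bases after the annotated end of Il1rl1. Coverage is that of the merged region, not of each library's own peak. At the downstream Il1r1 start, peaks of SISC replicates 1 and 2 span 34.5% and 24.1% of the region. Capitals mark the motif matches named below.
Il1r2, covered by a region in all 4 libraries, chr1:40085843-40086092, plus strand: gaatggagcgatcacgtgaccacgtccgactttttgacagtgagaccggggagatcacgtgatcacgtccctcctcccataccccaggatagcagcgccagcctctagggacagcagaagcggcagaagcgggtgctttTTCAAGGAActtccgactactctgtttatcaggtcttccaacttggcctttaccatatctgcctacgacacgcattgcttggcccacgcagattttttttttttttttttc
Il1r1 upstream start, covered by a LISC-only region, chr1:40224830-40225079, plus strand: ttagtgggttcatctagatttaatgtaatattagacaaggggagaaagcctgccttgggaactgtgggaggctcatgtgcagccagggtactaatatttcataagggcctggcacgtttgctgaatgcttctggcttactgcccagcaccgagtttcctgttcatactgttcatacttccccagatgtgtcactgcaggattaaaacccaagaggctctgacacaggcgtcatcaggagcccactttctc
Il1r1 downstream start, covered by a region called in all 4 libraries, chr1:40266336-40266585, plus strand: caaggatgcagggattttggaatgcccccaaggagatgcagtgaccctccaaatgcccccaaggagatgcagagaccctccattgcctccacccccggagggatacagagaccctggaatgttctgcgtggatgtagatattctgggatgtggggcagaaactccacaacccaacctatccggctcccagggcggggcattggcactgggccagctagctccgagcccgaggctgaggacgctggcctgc
Il18r1, with 87 bases in a LISC-only region, chr1:40465419-40465551, plus strand: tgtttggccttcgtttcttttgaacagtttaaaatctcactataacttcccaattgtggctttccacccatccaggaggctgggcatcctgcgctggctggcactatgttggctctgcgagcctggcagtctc
Il1rl1 downstream start, with no region in any library, chr1:40439379-40439628, plus strand: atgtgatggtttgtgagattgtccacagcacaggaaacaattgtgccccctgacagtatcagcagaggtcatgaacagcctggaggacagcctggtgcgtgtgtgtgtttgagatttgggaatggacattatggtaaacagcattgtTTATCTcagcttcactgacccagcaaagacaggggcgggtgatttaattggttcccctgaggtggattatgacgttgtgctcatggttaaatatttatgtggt

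At the starts, taken as within 1 kb, Il1r2 and Il1r1 had a region in all 4 libraries, beside 62.1% of protein-coding genes. Il1rl2 and Il18r1 had one in both LISC libraries and neither SISC library, beside 0.621% of genes. Il1rl1 and Il18rap had none at any annotated start, beside 32.4% of genes. No receptor gene had a start region in SISC only, beside 1.28% of genes.

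**Figure D3:**
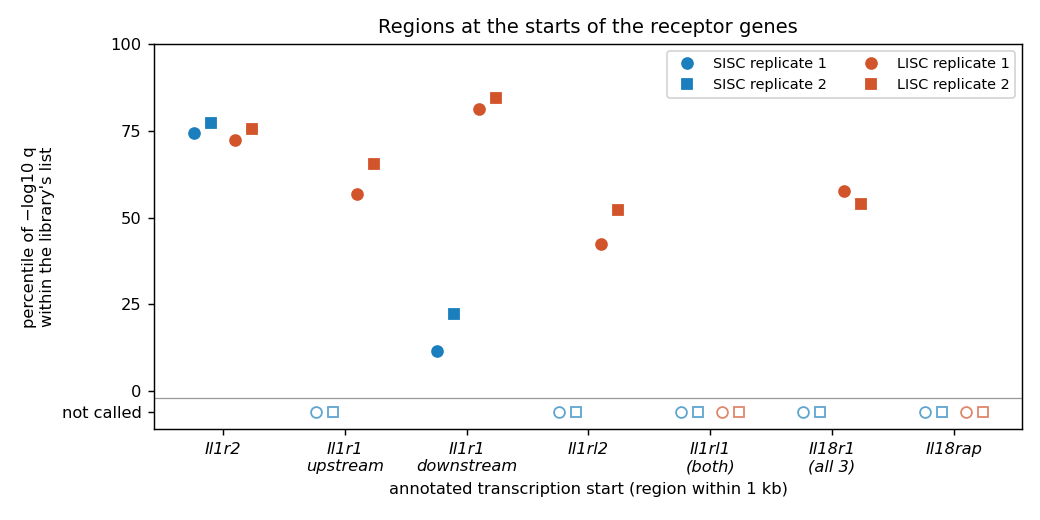
Points give the percentile of −log10 q, within each library's own list, of the region at each annotated start, and open symbols mark libraries with no call. SISC and LISC points lie together at Il1r2 and far apart at the downstream Il1r1 start.

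The decoy receptor gene Il1r2 (40084692 to 40125230) had a start region called in all 4 libraries at similar ranks. At its start region (40085328 to 40086291) the −log10 q values were 97.7 and 99.3 in SISC, against 88.6 and 67.8 in LISC. Within their own lists these peaks stood at the 74.2nd and 77.3rd percentile in SISC and the 72.3rd and 75.5th in LISC, so the groups overlapped. Such ranks come from lists of unequal length and are set side by side without a test. Farther into the gene, 30.3 kb from the start, a region (40116442 to 40116780) was called in all 4 libraries at the 40.3rd and 43.1st percentile in SISC and the 69.9th and 71.1st in LISC. Its LISC values lay above both SISC values, and the mean difference, SISC minus LISC, was -28.8 percentile points. For most of the 57829 regions called in all 4 libraries this difference lay between -28.4 and 25.7. How many of them had groups that did not overlap was not counted. Just before it, the region 40115346 to 40115855 was LISC-only, with a −log10 q of 63.7 and 35.6. The other regions inside Il1r2 were called in SISC replicate 2 alone (−log10 q 4.97) and LISC replicate 2 alone (4.98), both weak. That of SISC replicate 2 lay 442 bp past the start.

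Il1r1 (40222480 to 40316201) encodes the signalling receptor for IL-1, and of the 9 regions in its body 5 were LISC-only and none was SISC-only. Its upstream start region (40224480 to 40225492) was LISC-only, with a −log10 q of 46.3 and 45.4. The region over its downstream start (40266019 to 40267593) was present in every list. Its −log10 q was 8.62 and 11.4 in SISC, against 137 and 103 in LISC. By rank this region stood at the 11.7th and 22.2nd percentile of the SISC lists and the 81.1st and 84.6th of the LISC lists. The mean difference, SISC minus LISC, was -65.9 percentile points, and 0.0916% of the 57829 regions called in all 4 libraries had one as low. The authors' fold enrichment over local background in this region was 3.76 and 3.94 in SISC, against 8.05 and 6.86 in LISC. The merged region was thus low in both SISC lists and high in both LISC lists. Its summits lay at 40266834 and 40266569 in SISC replicates 1 and 2, against 40267025 in both LISC libraries. The values set side by side therefore come from peaks that are not centred at the same place. When a library's peaks had to cover 50% of a region, this region counted as LISC-only.

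Other Il1r1 regions lay within the body and in front of it. The strongest by mean rank of all 20 LISC-only regions (40278988 to 40280229) lay 12.4 kb past the downstream start, with a −log10 q of 316 and 149, and was the only LISC-only region past the 90th percentile of both LISC lists. The broadest, at 2031 bp (40242201 to 40244231), had 64.5 and 51.6. Regions at 40229701 to 40230767 (46.8 and 36.1) and at 40288492 to 40289208 (12.2 and 10.8) completed the LISC-only set of the body. In front of the gene, a region 30.2 kb before the upstream start (40193908 to 40194848) had a −log10 q of 173 and 118, with fold enrichments of 17.5 and 12.8. A weaker one, 5.83 kb before that start (40218623 to 40219255), had 12.9 and 7.99. All of these were absent from both SISC lists.

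Il1rl2 (40324589 to 40367555), the IL-36 receptor gene, held 5 regions in its body, 4 of them LISC-only and none called in a SISC library. The region nearest its start (40325052 to 40326296) began 463 bp past it, so no part of the 250 bases before the start lay in a region, and had a −log10 q of 26.8 and 28.2. The strongest (40340435 to 40341538) lay 15.8 kb inside, with a −log10 q of 209 and 165, at the 88.2nd and 92.6th percentile of the LISC lists. Regions at 40350620 to 40351167 (9.62 and 17.2) and 40352653 to 40353440 (7.21 and 4.93) were weak, the second being the weakest LISC-only region of the window by mean rank. Between Il1r1 and Il1rl2, 5.42 kb before the Il1rl2 start, the region 40318686 to 40319174 had 122 and 42.5. Past the gene, 2 weak LISC-only regions lay towards Il1rl1, at 40378849 to 40379173 (21.9 and 17.2) and 40380045 to 40380430 (8.39 and 17.9).

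Il1rl1 (40404864 to 40465418), which encodes the IL-33 receptor ST2, had no region within 1 kb of either annotated start. Its body held 2 regions, both LISC-only and both before those starts. The first (40419845 to 40420434), 9.14 kb before the upstream of the annotated starts, had a −log10 q of 75.7 and 25.9. The second (40423884 to 40424341), 5.23 kb before it, had 69.0 and 40.7.

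Il18r1 (40465552 to 40500854) encodes the IL-18 binding chain and begins just past the end of Il1rl1. Its lone region (40465465 to 40465981) covers or lies beside all 3 annotated starts and was LISC-only, with a −log10 q of 48.0 and 29.8. Il18rap (40515362 to 40551707), the gene of the accessory chain, held the single SISC-only region of the window (40547610 to 40548082), 32.2 kb past its start, which was weak with a −log10 q of 9.26 and 17.6 and was not among the strongest 41721 peaks of either SISC list. A neighbouring region (40544725 to 40544995) was called in SISC replicate 2 alone (24.4), and no LISC library had a region in Il18rap.

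The LISC-only regions of the cluster ranked higher in their lists than LISC-only regions as a whole. Their median percentile was 56.8 in LISC replicate 1 and 53.0 in LISC replicate 2 (n = 20), beside 32.8 and 32.6 over all 12191 LISC-only regions. At or past the 50th percentile in both LISC lists were 10 of the 20, beside 17.7% of all LISC-only regions. They were also wider, with a median of 675 bp beside 484 bp. These are medians of a chosen set, set beside the whole class with no test.

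The 20 LISC-only regions had to be called in both LISC libraries with overlapping peaks, so agreement between these lists is partly set by that rule. Pearson's r between the replicates' −log10 q, on a log10 scale, was 0.898 across the 20 regions, which share each library's depth and are not independent replicates. The value was higher in LISC replicate 1 at 16 of the 20 and the percentile at 9 of the 20. Summits of the pair lay a median of 21.5 bp apart, and 12 of the 20 within 50 bp. The same values over all LISC-only regions were not computed.

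**Figure D4:**
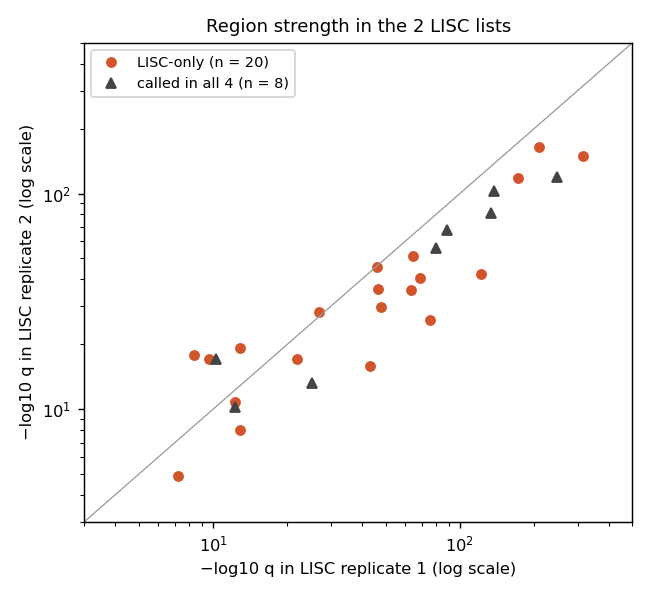
Each point is a region of the window, with its −log10 q in LISC replicate 1 across and in LISC replicate 2 up, both on log axes, and the line marks equality. The 20 LISC-only regions reach the strength of the 8 regions called in all 4 libraries, and 16 of the 20 lie below the line.

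On the far side of Il18rap, Slc9a4 (40579986 to 40630731), a sodium-hydrogen exchanger gene, had no group-only region in its body. The region over its lower-coordinate end (40579801 to 40580892) reached 105 and 134 in −log10 q in SISC, against 133 and 81.1 in LISC, and the groups overlapped. The strongest region called in all 4 libraries (40632287 to 40633603) lay just past Slc9a4, with 196 and 171 in SISC, against 246 and 119 in LISC, again overlapping. Before Il1r2, the part of the kinase gene Map4k4 in the window held 1 LISC-only region (40000997 to 40001290), with a −log10 q of 12.9 and 19.3. Another LISC-only region lay between Map4k4 and Il1r2 (40033506 to 40034369), with 43.1 and 15.8. The outermost regions inside the window were that of Map4k4, 83.4 kb from Il1r2, and, near the far edge past Il18rap, one called in all 4 libraries (40650658 to 40651639). The first ones outside it, at 120 and 105 kb, were both called in all 4 libraries.

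Sequence before the starts was searched on both strands for short motifs of factors known in gut epithelium or cytokine signalling. Across the 10 stretches, 5 matches were found at 4 starts. The STAT motif, TTCNNNGAA, matched at Il1r2 between bases -111 and -103 from the start, in capitals above, and at 2 places before the most downstream Il18r1 start. It was in 7.02% of all 32851 promoter stretches of 250 bases. The GATA motif, spelled AGATAA, matched before both Il1rl1 starts, where no region was called, and was in 9.99% of all stretches. The CDX motif (TTTATNG, in 9.81% of all stretches) had no match at any of the 10. The HNF4 motif (CAAAGTCCA, in 0.384% of them) and the TCF/LEF motif, which was taken as ATCAAAG and is in 3.21% of them, had none either. The same held for the AP-1 motif, read as TGANTCA and found in 6.75% of all stretches, and for the posterior HOX motif, read as CAATAAA and found in 4.2%. NF-kB and CTCF motifs, in 0.98% and 1.02% of all stretches, were also without a match. A missing match says only that these letters are not in this window. In base composition, Il1r2 had 14 CpG dinucleotides in its 250 bases and the downstream Il1r1 start 7, beside a median of 6 over all stretches. The upstream Il1r1 start had 3, Il1rl2 1, the Il1rl1 starts 0 and 3, the Il18r1 starts 3, 7 and 6, and Il18rap 4.

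Genes that act with these receptors were counted by the regions nearest to their ends. All 19 genes of the signalling list, from Myd88 to Casp1, had a start region in all 4 libraries, beside 62.1% of all genes. Where the table used gives no start, as for Tab1, Ikbkb and Nfkb1, a gene end was taken. Of the 19, 2 had more SISC-only and 7 more LISC-only regions, beside 16.6% and 17.5% of all genes. The regions nearest to the 19 numbered 157, of which 8 were SISC-only and 18 LISC-only. Over all genes they numbered 106746, with 8292 SISC-only and 9585 LISC-only. Nfkb1, which encodes the p105 precursor of NF-kB p50, had 2 SISC-only and 5 LISC-only regions. Irak3, an IRAK family member that dampens the signal, had 0 and 2, and Tab2, an adaptor of the TAK1 kinase, 2 and 4. Tnfaip3, the A20 inhibitor of NF-kB signalling, had the same net count with 1 and 3. On the SISC side Tab3 and Ikbkg had 1 SISC-only region and no LISC-only region each.

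Of the other receptor family genes, the shared accessory chain gene Il1rap had 1 SISC-only region, no LISC-only region and a start region in all 4 libraries. Sigirr, an inhibitory family member, was called at a gene end in all 4 libraries, while Il1rapl1 and Il1rapl2 had no start region in any. Among 10 matched ligand and soluble inhibitor genes, 4 had a start region in all 4 libraries, namely Il1rn, Il18, Il18bp and Il33, and 6 had none, beside 62.1% and 32.4% of all genes. Il33, the ligand of the Il1rl1 product, had 1 SISC-only and 5 LISC-only regions, and Il1rn, the IL-1 receptor antagonist, 0 and 1. No other ligand gene had more of either kind. The median net count was 0 in each of these 3 lists, as it was over all genes.

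IL-1 family receptors are also genes of immune and stromal cells, so markers of both were counted. Over all genes, starts were called at 64.7% and 66.3% in SISC replicates 1 and 2 and at 64.2% and 64.1% in LISC replicates 1 and 2. Start regions were called at 4 and 3 of 19 immune markers in SISC replicates 1 and 2 and at 4 and 3 in LISC replicates 1 and 2. Ptprc, Cd3e, Lyz2, Csf1r and Itgam had none in any library. For the 12 stromal and endothelial markers the counts were 5 and 7 in SISC, against 4 and 2 in LISC. In both lists a gene end was taken where the table used gives no start. Whether a few such cells add to the calls at the cluster was not tested.

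By nearest gene end, Il1r1 had 0 SISC-only and 8 LISC-only regions out of 13, and 43 of 21887 protein-coding genes (0.196%) had at least 8 LISC-only regions. Il1rl2 had 0 and 6, reached by 156 genes (0.713%), and Il1rl1 0 and 2, reached by 10.0% of genes. Il1r2 and Il18r1 had 0 and 1 each, reached by 23.7%, and Il18rap 1 and 0. The genes most like Il1r1 were sought by summed within-list percentile of their regions in each of the 4 libraries. For Il1r1 these sums were 11.7 and 22.2 in SISC, against 611 and 564 in LISC. Nearest were Slc8a1, a sodium-calcium exchanger gene, Palmd and Lrriq3, with mean absolute differences of 31.1, 51.1 and 60.3. Slc8a1 had sums of 24.5 and 20.7 in SISC, against 657 and 627 in LISC, with 0 SISC-only and 9 LISC-only regions.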

How the data were processed

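ATAC-seq peak lists of 4 libraries were used, 2 SISC and 2 LISC. Peaks were called with MACS2 2.2.7.1 on mm10, per the submitters' processing notes, which also name Bowtie2 2.3.4.1, cutadapt 3.4, bedtools and Picard. Not given in the sources used here: read shift, duplicate treatment, settings and calling threshold. The authors deposited 1 MACS2 list per library, with a fold enrichment (a ratio) over local background, a −log10 p and −log10 q, and a score equal to 10 times the −log10 q, rounded down, in at least 99.8% of peaks. These values depend on each library's depth, which is unknown, so they were ranked within a list or set side by side, and between the LISC libraries also compared region by region as a description.

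Peaks were merged at 1 bp overlap (119965 regions; checked on simulated data and against bedtools 2.31.1). Genes came from RefSeq GRCm38.p6 (21887 protein-coding), starts from its promoter table for 17492 of them, and both gene ends stood in for the others; exons were not used here. Of 77 list genes 76 matched, 3 through synonyms. With 2 libraries against 2 no exact p can go below 1 in 3, so no test was made, and no p-value is given. The members, lists and alternatives were chosen with earlier results of these data known. Named were the 6 receptor genes, protein-coding neighbours in the window, up to 4 list genes per direction by net group-only regions (with ties), all group-only and start regions, regions called in all 4 libraries with the highest mean percentile, and the 3 genes most like Il1r1. Alternatives were stronger or equal lists, 50% cover, summit windows of 100 bp on each side, other distances, and leaving out each library. Python 3.11.15, numpy 2.4.6, pandas 2.3.3 and matplotlib 3.10.9 were used.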

Additional observations from a re-analysis of the deposited data

How the results depend on the processing

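LISC-only regions outnumbered SISC-only regions in the window under every alternative run. With the 41721 strongest peaks of each list, there were 0 SISC-only, 12 LISC-only (net -12) and 3 regions called in all 4 libraries, and 1 receptor gene had a start region in all 4, as fewer peaks entered. With member gene bodies alone there were 13 LISC-only (net -12) and 3 called in all 4, and within 50 kb 4 were called in all 4, as fewer regions entered. With 50% cover required of a library's peaks, 1 receptor gene, Il1r2, had a start region in all 4 libraries; SISC peaks at the downstream Il1r1 start covered 34.5% and 24.1% of the region. Leaving out each library gave 1 to 5 SISC-only regions, the 5 without SISC replicate 1, and 20 to 27 LISC-only. Each time 8 regions were called in all libraries left, and 2 receptor genes had a start region in all of them. A class rule over fewer libraries is looser, so these counts could hardly fall. LISC-only counts inside the 6 gene bodies, alternatives chosen after seeing the data, were within 1.5 times in 44 of 48 cases. These cases include Il18rap, which had 0 under every setting. With the 41721 strongest peaks, Il1rl2 fell from 4 to 1, Il1rl1 fell from 2 to 1 and Il1r2 rose from 1 to 2. Without LISC replicate 1, Il1r2 also had 2. No paired analysis was possible because the results come from no test. Depth is unknown, so a weak region may be missed in any list.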
